A study of Mus musculus with 49 samples.

Results

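Epididymal white fat of 129S1/SvImJ mice fed rosiglitazone was compared with that of C57BL/6 mice fed the same drug diet. The comparison rests on 8 RNA-seq libraries, 4 per strain, of the 49 samples in the series. They were taken as the libraries labelled as rosiglitazone-treated in the drug experiment, with no measured value used in the choice. Both strains were fed a low fat diet between 6 and 16 weeks of age, and then the same diet with 36 mg rosiglitazone per kg until 18 weeks. The 4 129S1/SvImJ (129) and 4 C57BL/6 (C57) libraries of mice kept on control diet until 18 weeks serve as the undrugged counterpart. Chow-fed mice (5 libraries per strain) and mice after 12 weeks of low fat diet (4 129 and 5 C57 libraries) were used to see which differences recur. Both strains are inbred and no allele was altered. Whether the libraries of a group came from separate animals is not said in the labels. The p-values therefore reflect only how much these libraries varied, which may be technical.

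Rosiglitazone is an antidiabetic thiazolidinedione that binds PPARG, the nuclear receptor that pairs with RXR and drives fat cell differentiation and lipid storage. In white fat of mice and in cultured adipocytes, PPARG agonists also raise genes of fatty acid oxidation, of mitochondria and of the thermogenic program best known from brown fat, where the uncoupling protein UCP1 lets protons re-enter mitochondria and so turns fuel into heat. The comparison asks how fat of these strains differs while both are exposed to the drug.

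Values are the normalized whole numbers that the authors deposited, with a floor of 1, and are called levels here. Their sum was 5537632 to 5541470 in 129 and 5539206 to 5540803 in C57 rosiglitazone libraries, so it carries no depth, and the depth of each library is unknown. Transcript rows at the floor made up 26.04% and 27.21% in 129 replicates 1 and 2, 16.5% and 18.2% in 129 replicates 3 and 4, and 16.5% to 22.7% in the C57 libraries. Differences are 129 minus C57 on the log2(value + 1) scale with their standard error, from a limma fit over all 22869 genes, and a gene is called where its Benjamini-Hochberg adjusted p is under 0.05. The label of the tissue matched its markers. Adipoq, the adipocyte hormone adiponectin, had levels of 12430 to 17219 in 129 and 13828 to 18383 in C57 rosiglitazone libraries, and none of 15 epididymis genes reached a mean of 10 in either group. The chow libraries differed in this. There all 15 epididymis genes reached a mean of 10 in at least 1 strain, and all 15 differences were positive (median 2.1, 0 called). How this bears on the strain differences on chow was not tested.

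On rosiglitazone 2444 of 22869 genes (10.7%) were called, 1246 higher in 129 (5.45%) and 1198 lower in 129 (5.24%). Among the 12938 genes whose mean level reached 10 in at least 1 strain, 9.14% were called higher and 8.87% lower, which is the closer background for the expressed genes of the lists below. A difference of at least 1 on the log2 scale was reached by 332 of the genes higher in 129, and 354 of those lower in 129 differed by at least as much. Levels did not overlap between the strains for 13.2% of all genes. The median difference over all genes was 0, in values whose distribution had been made nearly equal between libraries. Leaving out 129 replicate 1 gave 1619 calls, the lowest count without a single library, and leaving out 129 replicate 3 gave the highest, 2661. With the spread estimated from these 8 libraries alone, rather than from all 16 of the drug experiment, 1407 genes were called.

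Ucp1 and other genes of the thermogenic program were higher in drug-treated 129 fat. Of 20 thermogenic genes 8 were called higher in 129, 0 lower and 12 not called, with a median difference of 0.62. Ucp1 itself had the second largest fold change among the genes called, with levels of 241, 481, 245 and 680 in 129 rosiglitazone libraries against 4, 5, 3 and 4 in C57 ones. All 4 129 libraries lay far above the C57 ones, which stayed close to the floor. Its mean was 103-fold higher in 129, and the difference was 6.24 ± 0.53 on the log2 scale (adjusted p = 6.68e-07).

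Cidea, a lipid droplet protein abundant in brown fat, had levels of 602, 808, 333 and 596 in 129 against 64, 46, 52 and 66 in C57 libraries. The strains did not overlap, and the difference was 3.28 ± 0.22 (adjusted p = 1.61e-09). Cox7a1 and Cox8b, subunits of cytochrome c oxidase in their muscle and brown fat forms, followed with differences of 2.40 ± 0.34 (adjusted p = 8.6e-05) and 2.37 ± 0.35 (adjusted p = 0.000416). Cox8b levels were 399, 523, 170 and 455 in 129 and 115, 62, 60 and 50 in C57 libraries. Of these 129 libraries replicate 3 was the lowest, yet it stood above every C57 library. Ppara, the receptor that governs fatty acid oxidation in liver, had levels of 317, 416, 322 and 325 in 129 and 203, 102, 153 and 206 in C57 libraries (1.10 ± 0.19, adjusted p = 0.000526), a call that is missed with the 8 libraries alone (adjusted p = 0.0513).

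Other members of the thermogenic list did not pass the test. Ppargc1a, the coactivator that drives mitochondrial biogenesis, had levels of 39, 59, 33 and 53 in 129 and 40, 21, 26 and 42 in C57 libraries, which overlap (0.52 ± 0.26, adjusted p = 0.239). Dio2, the deiodinase that makes active thyroid hormone, was near the floor in both strains, at 7 to 15 in 129 and 5 to 7 in C57 libraries (0.80 on the log2 scale, adjusted p = 0.255). Prdm16, a coregulator needed for the brown fat fate, had levels of 21 to 58 in 129 and 32 to 51 in C57 libraries (-0.22 ± 0.26, adjusted p = 0.689).

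**Figure D1:**
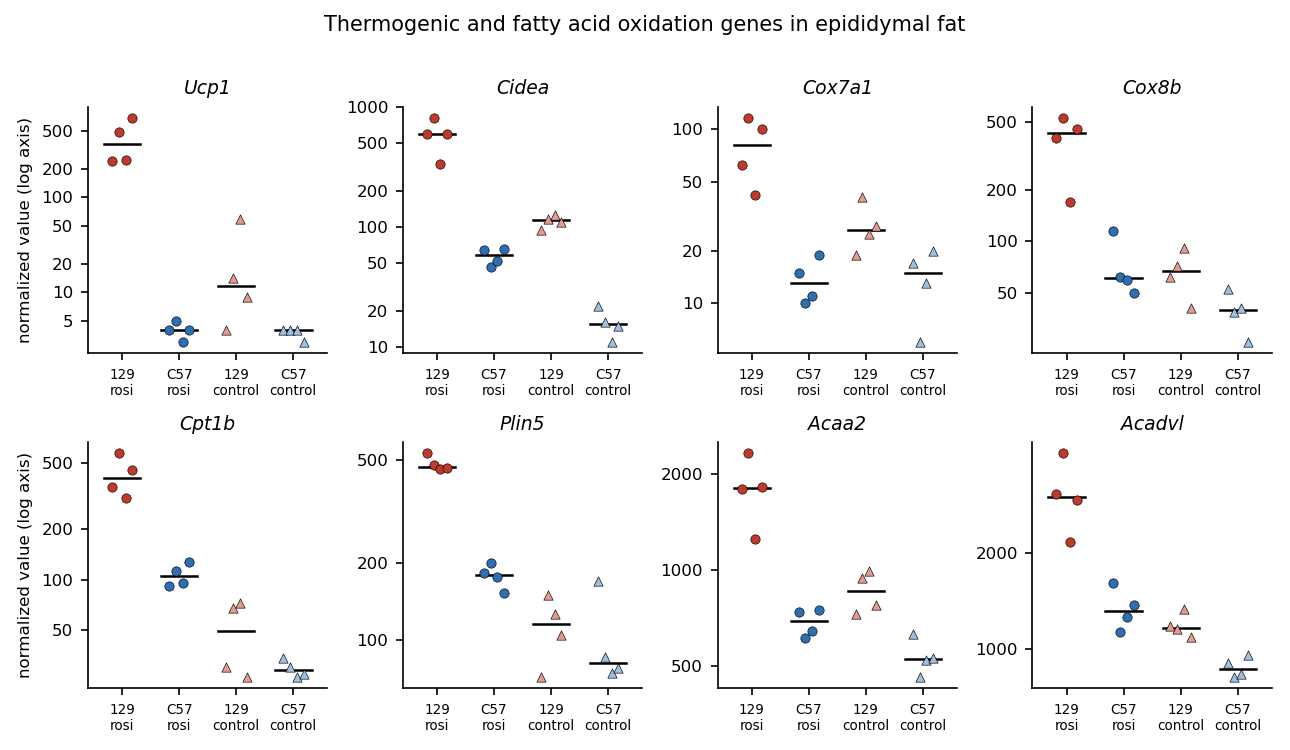
Levels of 8 genes of thermogenesis, fatty acid oxidation and lipid droplets in each library of the drug experiment, on a log axis of normalized value. Points are libraries (circles with rosiglitazone, triangles on control diet), bars are group medians. The 4 129 rosiglitazone libraries lie above the 4 C57 rosiglitazone libraries for every gene shown, and Ucp1 reaches 241 to 680 in them against 3 to 5.

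Most genes of mitochondrial fatty acid oxidation were higher as well. Of 23 such genes 17 were called higher in 129 and 0 lower (median difference 0.60), against 9.14% and 8.87% of expressed genes. Cpt1b, the carnitine palmitoyltransferase that admits long fatty acids into muscle and brown fat mitochondria, had levels of 358, 572, 309 and 456 in 129 against 91, 113, 96 and 128 in C57 libraries (1.95 ± 0.27, adjusted p = 0.000144). The groups were far apart, with the lowest 129 library above the highest C57 library. Of the 36-base windows of the Cpt1b transcript 93.5% also lie in the overlapping readthrough gene Gm44502, so reads of these genes cannot be fully told apart. BC090627, the name these tables give that readthrough, had levels of 526, 748, 492 and 621 in 129 and 243, 268, 251 and 272 in C57 libraries (1.19 ± 0.14, adjusted p = 4.76e-06).

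Acaa2, the thiolase of the last step of the oxidation cycle, had levels of 1796, 2323, 1255 and 1828 in 129 and 740, 616, 646 and 751 in C57 libraries. It did not overlap between the strains, and the difference was 1.36 ± 0.15 (adjusted p = 2.13e-06). Acadvl, the dehydrogenase for very long chains, differed by 1.17 ± 0.14 (adjusted p = 9.96e-06), with 30.4% of its windows shared with the neighbouring Dvl2. Acadm, the medium-chain dehydrogenase, and Hadha, a subunit of the trifunctional protein, differed by 0.83 ± 0.11 (adjusted p = 4.65e-05) and 0.79 ± 0.12 (adjusted p = 0.000128).

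The wider mitochondrial machinery moved the same way. Of 40 nuclear genes for the respiratory chain and ATP synthase 32 were called higher in 129 and 1 lower (median 0.53). Atp5b, the catalytic subunit of ATP synthase, had levels of 12100, 13828, 9671 and 11028 in 129 and 7199, 5987, 6259 and 7491 in C57 libraries (0.79 ± 0.11, adjusted p = 6.24e-05). Also above the list median were Ndufv1 of complex I and Uqcrc1 of complex III, which differed by 0.86 ± 0.13 and 0.83 ± 0.13 (adjusted p = 0.00013 and 0.00017), and no library of either strain crossed over. The gene called lower was Ndufs5, another complex I subunit, at 6, 8, 4 and 2 in 129 against 84, 79, 81 and 90 in C57 libraries. BC002163, which shares 78.9% of its windows with Ndufs5, had the opposite pattern, at 177, 168, 101 and 143 in 129 and 5, 5, 7 and 6 in C57 libraries. How reads of this pair were divided between the symbols is therefore uncertain.

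Of 24 genes of the citrate cycle and pyruvate dehydrogenase 16 were called higher in 129 and 0 lower (median 0.47). Suclg1, a subunit of succinyl-CoA ligase, had levels of 1082, 937, 720 and 927 in 129 and 433, 272, 350 and 424 in C57 libraries (1.32 ± 0.15, adjusted p = 3.87e-06). Its levels in 129 lay apart from those in C57 in every library. Idh2, the NADP-dependent isocitrate dehydrogenase, differed by 0.90 ± 0.13 (adjusted p = 0.000107). Breakdown of branched-chain amino acids had 10 of 20 genes called higher and 0 lower (median 0.50), led by Bckdhb, a subunit of the branched-chain keto acid dehydrogenase, at 818, 871, 628 and 916 in 129 and 443, 307, 375 and 350 in C57 libraries (1.13 ± 0.12, adjusted p = 1.2e-06).

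C57 replicate 2 had the lowest summed level of respiratory chain genes, 25827 against 29277 to 33514 in the other C57 and 37644 to 54764 in the 129 libraries. It also had the highest sum of macrophage genes, at 6289 against 2536 to 3536 in the other C57 and 3333 to 5337 in the 129 libraries. The part of that library's makeup in these results was not tested, but the counts were taken again without it. They were then 7 for thermogenic genes, 15 for fatty acid oxidation, 22 for the respiratory chain and 12 for the citrate cycle. The branched-chain count of 10 was 4 without 129 replicate 2, 5 without C57 replicate 2, 6 without C57 replicate 3 or 129 replicate 4, 12 without 129 replicate 3 and 13 without C57 replicate 1. From the 8 libraries alone, they were 5 for thermogenic genes, 8 for fatty acid oxidation, 10 for the respiratory chain, 8 for the citrate cycle and 2 for branched-chain breakdown.

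The core of the fat cell did not follow this pattern. Of 20 adipocyte identity genes 2 were called higher in 129 and 0 lower, with a median difference of 0.01. Pparg, the drug's receptor, had levels of 755, 858, 969 and 756 in 129 and 831, 871, 1050 and 978 in C57 rosiglitazone libraries. These overlap, and the difference was -0.16 ± 0.10 (adjusted p = 0.368). Its partner Rxra differed by -0.15 ± 0.08 (adjusted p = 0.319), Adipoq by -0.14 ± 0.12 (adjusted p = 0.569) and Plin1, the droplet coat protein that gates lipolysis, by 0.12 ± 0.11 (adjusted p = 0.578). Cd36, a fatty acid transporter, may show a limit of the values, since it stands at 22517 in 7 of the 8 libraries and at 22943 in 129 replicate 3. Whether the normalization left such abundant genes little room to differ was not tested. The called genes Mgll, Trf and Col3a1 below all had lower levels than Cd36. Fabp4, the fatty acid carrier of adipocytes, takes only the levels 69086 and 58431 in 129 and 58431 and 47712 in C57 libraries (0.25 ± 0.12, adjusted p = 0.186).

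Among hormones of fat, leptin (Lep) had levels of 9403, 6133, 9517 and 8225 in 129 and 4854, 10046, 11028 and 10461 in C57 libraries (-0.08 ± 0.29, adjusted p = 0.966). Resistin (Retn) had 1570, 2000, 1030 and 1637 in 129 and 3264, 1603, 2487 and 2433 in C57 libraries (-0.64 ± 0.24, adjusted p = 0.116). Both overlapped between strains, although resistin would be called without C57 replicate 2 (adjusted p = 0.0401). Slc2a4, the insulin-responsive glucose transporter GLUT4, differed by 0.12 ± 0.15 (adjusted p = 0.723). Nampt, the enzyme of NAD synthesis that is also secreted, was higher at 787, 937, 719 and 779 in 129 against 537, 453, 492 and 494 in C57 libraries (0.70 ± 0.12, adjusted p = 0.00061).

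Of 26 textbook targets of PPARG agonists 10 were called higher in 129 and 3 lower (median 0.23), where the lower share is near the 8.87% of expressed genes. Without C57 replicate 4 the count lower was 1, and the higher count was 6 in each fit without C57 replicate 2, 3 or 4 or without 129 replicate 1 or 4. Ucp1 and Cidea stand in both this list and the thermogenic one, and counts of lists that share members are not independent. Plin5, the droplet protein that tethers fat to mitochondria, had levels of 531, 480, 461 and 465 in 129 against 183, 199, 176 and 153 in C57 libraries (1.44 ± 0.23, adjusted p = 0.000362). Of 13 lipid droplet coat genes 5 were called higher and 0 lower (median 0.33), among them Plin2 by 0.57 ± 0.12 (adjusted p = 0.00269) and Cidec by 0.44 ± 0.09 (adjusted p = 0.00189), while Plin1 was not. Mgll, which cleaves the last fatty acid from monoglyceride, stood at 15186, 16066, 18383 and 17219 in 129 and 9784, 9403, 9909 and 9909 in C57 libraries (0.77 ± 0.08, adjusted p = 5.99e-07). Pck1, which supplies glycerol 3-phosphate, was called higher (0.65 ± 0.19, adjusted p = 0.0345), but lost the call without C57 replicate 2, 3 or 4 or without 129 replicate 1, 2 or 4, and its adjusted p reached 0.139 over all alternatives.

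Acsl3, a long-chain acyl-CoA ligase, was lower in 129 (-0.71 ± 0.15, adjusted p = 0.00362). Gpd1, the glycerol 3-phosphate dehydrogenase, did not differ beyond the spread of the libraries (-0.08 ± 0.12, adjusted p = 0.784).

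**Figure D2:**
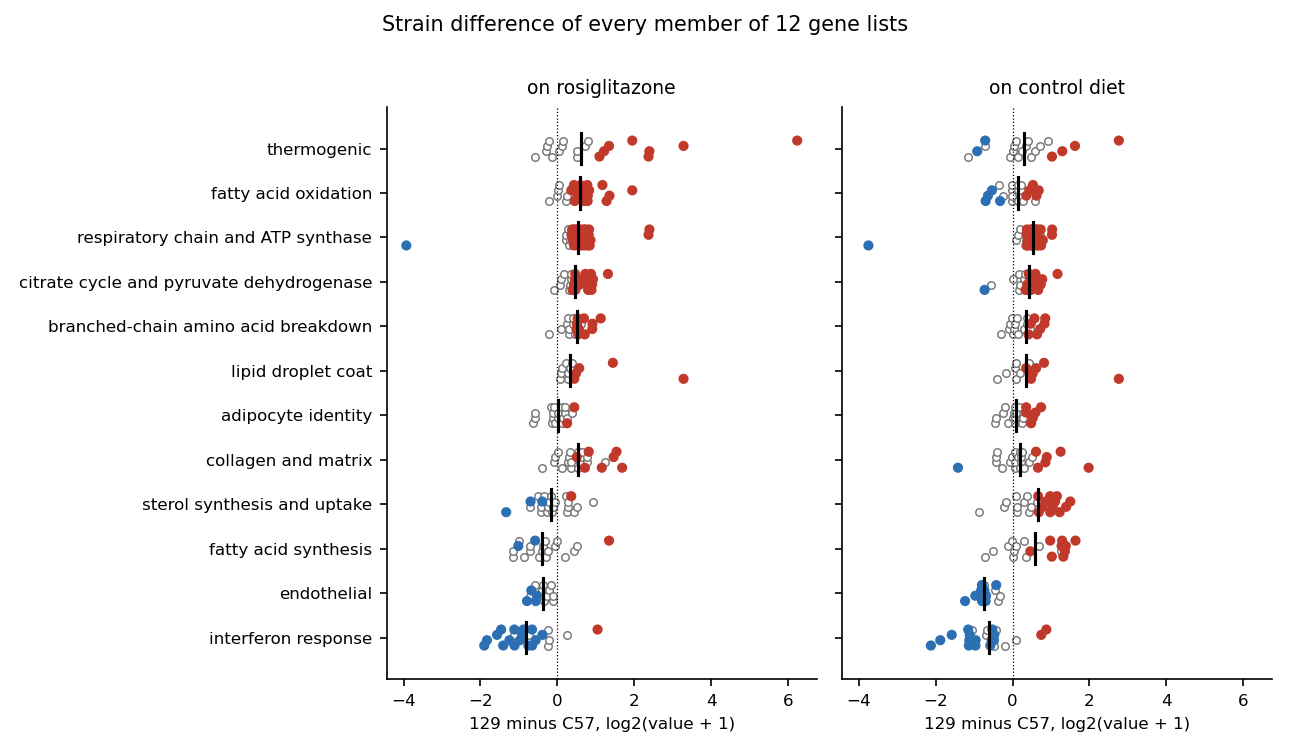
Strain difference of every member of 12 gene lists, 129 minus C57 on the log2(value + 1) scale, on rosiglitazone (left) and on control diet (right). Filled points are called (red higher in 129, blue lower), open points are not called, and black bars are list medians. On rosiglitazone the 5 mitochondrial and thermogenic lists have medians of 0.47 to 0.62, and the interferon list lies at -0.82.

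Antiviral genes induced by interferon were lower in drug-treated 129 fat. Type I interferon acts through a complex of STAT2 and its partners, which binds a short repeated element upstream of these genes. Of 24 such genes 16 were called lower in 129 and 1 higher (median -0.82). The promoters shown next belong to 5 genes picked from the 9 called lower that hold the element, and the others are not printed. The element was searched as TTTC, any 2 bases and TTTC again, or GAAA, any 2 bases and GAAA on the other strand, with overlapping matches kept. It lies within the 250 bases before the start site of 12 of the 19 list genes with a promoter in RefSeq (63.2%), 9 of 13 called lower (69.2%), 3 of 6 not called lower, and 936 of 27025 promoters overall (3.46%). Among all genes called lower in 129 the share was 4.95%, and among those called higher 2.57%. The sequences are 120 bases each from RefSeq on GRCm38.p6, in the direction of the gene, with matches in capitals. A match describes the letters only and shows no binding.
Ifit1, chr19:34640739-34640858, plus strand: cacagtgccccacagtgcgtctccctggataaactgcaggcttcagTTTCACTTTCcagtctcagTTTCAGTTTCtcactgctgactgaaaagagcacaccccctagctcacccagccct
Ifit3, chr19:34583335-34583454, plus strand: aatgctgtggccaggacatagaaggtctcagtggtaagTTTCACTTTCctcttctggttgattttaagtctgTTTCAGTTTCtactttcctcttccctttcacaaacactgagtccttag
Stat2, chr10:128270248-128270367, plus strand: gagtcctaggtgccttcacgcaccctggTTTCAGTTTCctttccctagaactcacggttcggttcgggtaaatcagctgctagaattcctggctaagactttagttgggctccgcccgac
Rsad2, chr12:26456508-26456627, minus strand: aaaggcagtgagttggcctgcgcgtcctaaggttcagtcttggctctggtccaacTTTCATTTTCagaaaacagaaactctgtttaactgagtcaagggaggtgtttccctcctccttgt
Bst2, chr8:71537535-71537654, minus strand: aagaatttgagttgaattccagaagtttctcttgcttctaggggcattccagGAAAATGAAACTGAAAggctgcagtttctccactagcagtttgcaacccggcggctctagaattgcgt

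The genes behind these promoters were separated by strain in every library. Ifit1, which binds foreign RNA ends, had levels of 22, 14, 11 and 14 in 129 and 33, 36, 45 and 33 in C57 libraries (-1.25 ± 0.25, adjusted p = 0.00192). Its neighbour Ifit3 had 60, 57, 42 and 47 in 129 and 104, 93, 98 and 94 in C57 libraries (-0.92 ± 0.17, adjusted p = 0.00139). Stat2, the transcription factor of the pathway itself, had 117, 88, 107 and 107 in 129 and 151, 204, 183 and 172 in C57 libraries (-0.75 ± 0.12, adjusted p = 0.000232). Rsad2 (viperin) and Bst2 (tetherin), which block viral replication and release, differed by -1.90 ± 0.36 (adjusted p = 0.0019) and -1.46 ± 0.27 (adjusted p = 0.00158). With the 8 libraries alone Rsad2 and Bst2 would not be called.

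Among list members without a promoter shown, Oas2, a sensor of double-stranded RNA, had levels of 29, 24, 29 and 26 in 129 and 104, 104, 112 and 77 in C57 libraries. No 129 library came near a C57 one (-1.83 ± 0.19, adjusted p = 1.46e-06). Ifih1 (MDA5), another sensor, differed by -0.66 ± 0.10 (adjusted p = 0.000205), and Usp18, which dampens the receptor, by -1.12 ± 0.21 (adjusted p = 0.00123). The member higher in 129 was Xaf1, a proapoptotic interferon-induced gene, at 119, 87, 110 and 80 in 129 and 47, 53, 52 and 37 in C57 libraries (1.05 ± 0.17, adjusted p = 0.000328). The count of genes called lower was 10 without C57 replicate 2 and 10 to 16 over all fits without single libraries, and 7 from the 8 libraries alone. On control diet 14 were called lower and 2 higher.

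In bulk tissue, fewer cells of a type and less RNA per cell cannot be told apart. Of 22 macrophage genes 1 was called higher in 129 and 2 lower, near or below the 9.14% and 8.87% of expressed genes. Their summed levels were 3333 to 5337 in 129 and 2536 to 6289 in C57 libraries. Trem2, a lipid-sensing receptor of macrophages, was the gene higher in 129, at 353, 242, 250 and 261 against 14, 52, 27 and 27 in C57 libraries (3.29 ± 0.50, adjusted p = 0.000871). No other macrophage gene of the list was called higher. Lyz1, a lysozyme that shares 28.5% of its windows with Lyz2, was lower in 129 (-0.98 ± 0.19, adjusted p = 0.00172, 0.0547 with the 8 libraries alone). Of 14 endothelial genes 4 were called lower and 0 higher, with a median of -0.38, and their summed levels of 3878 to 6161 in 129 and 5081 to 8235 in C57 libraries overlap. Eng, the endothelial co-receptor endoglin, differed by -0.79 ± 0.15 (adjusted p = 0.00149, 0.0646 with the 8 libraries alone). The endothelial count ran from 1 (without C57 replicate 2 or 3, or 129 replicate 1 or 4), over 2 (without C57 replicate 1 or 129 replicate 2), to 8 (without C57 replicate 4). It was 0 from the 8 libraries alone in limma, so the count on rosiglitazone rests on single libraries and on the shared spread. Without the drug 10 of the 14 were called lower on control diet (median -0.73), 0 on chow (median -0.96) and 14 after 12 weeks of low fat diet (median -1.19). None of the 14 differences was positive in any of these sets or on rosiglitazone.

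Of 25 collagen and matrix genes 7 were called higher in 129, 0 lower and 18 not called (median 0.55), and 4 were higher from the 8 libraries alone. Col3a1, a fibrillar collagen, had levels of 13106, 7918, 11028 and 6919 in 129 and 2580, 4133, 3555 and 2927 in C57 libraries. The strains did not overlap (1.54 ± 0.28, adjusted p = 0.00248). Mmp2, a gelatinase that remodels basement membrane, differed by 1.69 ± 0.20 (adjusted p = 1.3e-05), Col5a2 by 1.46 ± 0.15 (adjusted p = 1.86e-06) and Col18a1 by 0.82 ± 0.16 (adjusted p = 0.00155, 0.0607 with the 8 libraries alone). Pdgfra, a receptor that marks adipose progenitors and fibroblasts, was the 1 gene of 16 progenitor markers higher in 129, at 558, 417, 432 and 370 against 272, 264, 291 and 304 in C57 libraries (0.64 ± 0.15, adjusted p = 0.00846). 2 other progenitor markers were called lower, and both progenitor counts are near the 9.14% and 8.87% of expressed genes.

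Of 26 antioxidant and NRF2 genes 6 were called higher in 129 and 3 lower, the second share being near the 8.87% of expressed genes. The count higher was 3 without 129 replicate 2 or C57 replicate 2. Hmox1, heme oxygenase 1, had levels of 293, 185, 266 and 235 in 129 and 109, 147, 93 and 109 in C57 libraries (1.09 ± 0.19, adjusted p = 0.000545). Sod3, the extracellular superoxide dismutase, had 883, 789, 912 and 932 in 129 and 1279, 1518, 1656 and 1719 in C57 libraries (-0.80 ± 0.14, adjusted p = 0.000598). Neither gene overlapped between strains. Gstm1, a glutathione transferase with 30.9% of its windows in other genes, was lower in 129 by a similar amount (-0.80 ± 0.14, adjusted p = 0.000708). Of 22 genes of insulin signalling and glucose use 5 were called higher and 2 lower, again near the background for the genes lower. Those higher include Grb14, an adaptor that restrains the insulin receptor (1.25 ± 0.30, adjusted p = 0.0094), and the glycolytic enzymes Aldoa (0.68 ± 0.13, adjusted p = 0.0013) and Pfkl (0.59 ± 0.12, adjusted p = 0.00216, 0.0537 with the 8 libraries alone).

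The question of which strain differences depended on the drug was put to a strain by drug test in the 16 libraries. It called 48 of 22869 genes (0.210%), 17 with a difference more positive on rosiglitazone than on control diet (0.0743%) and 31 more negative (0.136%). On control diet 4004 genes were called (17.5%), 2287 higher in 129 (10.0%) and 1717 lower (7.51%). Of the genes called higher on rosiglitazone 792 were also called higher on control diet (63.6% of the rosiglitazone list, 34.6% of the control diet list), and of those called lower 751 were (62.7% and 43.7%). 15 genes were called in opposite directions. The 2 comparisons share no library but share the estimate of the spread. Of 886 genes called on rosiglitazone and not on control diet, 9 were called in the strain by drug test, so a call on 1 diet alone does not show that the diets differ.

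**Figure D3:**
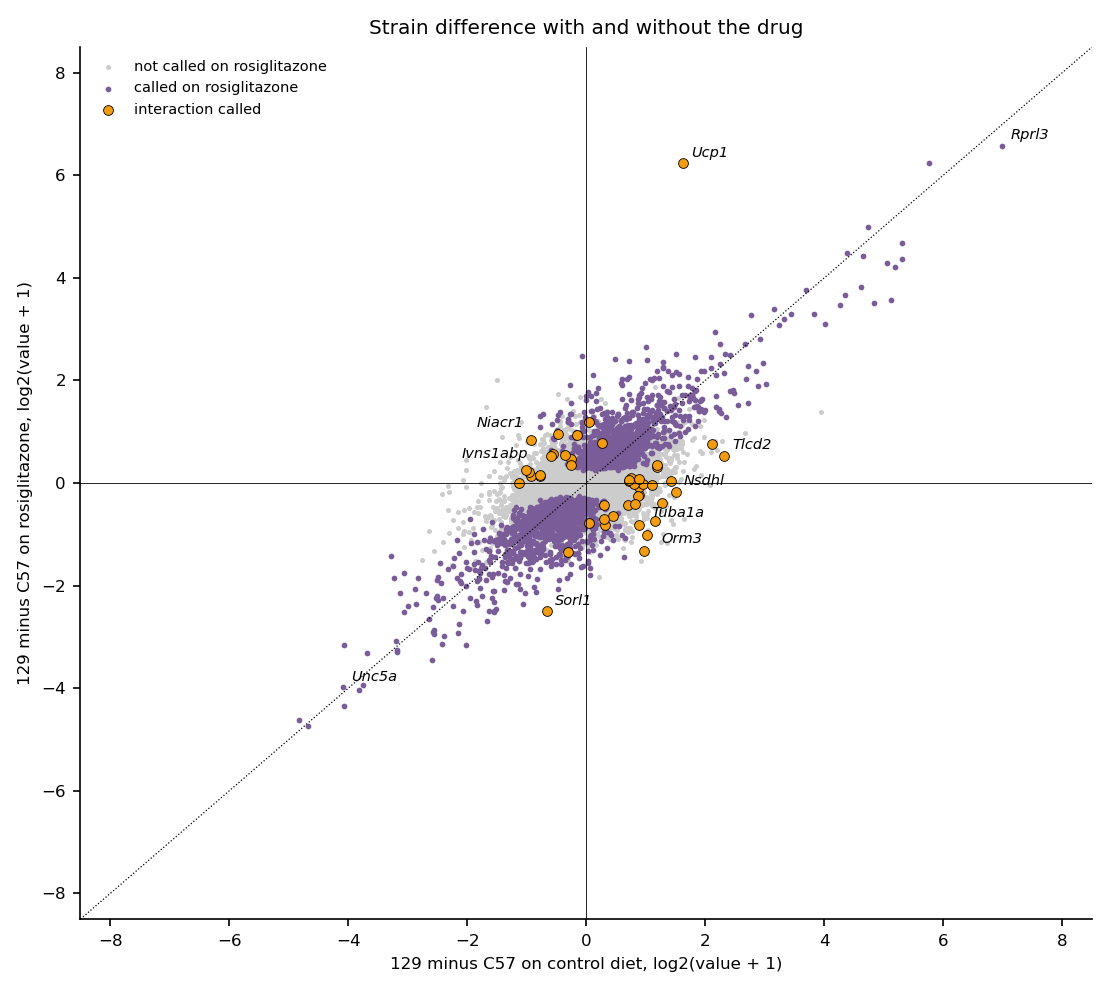
Strain difference of all 22869 genes on rosiglitazone (y axis) against control diet (x axis), both 129 minus C57 on the log2(value + 1) scale. Purple points are called on rosiglitazone, orange points are the 48 genes called in the strain by drug test, and the dotted line marks equal differences. Ucp1 lies at 6.24 on rosiglitazone and 1.62 on control diet, and Rprl3 lies near the line.

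Ucp1 had the largest positive value of this test. Its levels were 4, 14, 59 and 9 in 129 and 4, 4, 4 and 3 in C57 control diet libraries, a difference of 1.62 ± 0.53 (adjusted p = 0.0444), so the strain difference was larger on the drug by 4.62 ± 0.75 (adjusted p = 0.0157). That call was lost without C57 control replicate 1, C57 rosiglitazone replicate 3 or C57 rosiglitazone replicate 4, and the highest adjusted p over all alternatives was 0.0788. Cidea differed already on control diet, at 95, 116, 126 and 111 in 129 against 22, 16, 11 and 15 in C57 libraries, by 2.76 ± 0.22 (adjusted p = 2.28e-08), and the drug test gave 0.52 ± 0.31 (adjusted p = 0.624). Cox8b and Cpt1b were not called on control diet (0.72 ± 0.35 and 0.59 ± 0.27, adjusted p = 0.197 and 0.166), and the change with the drug missed the threshold (adjusted p = 0.227 and 0.179). Of the 20 thermogenic genes 4 were called higher in 129 and 2 lower on control diet (median 0.29). In the other undrugged mice 7 were called higher and 0 lower after 12 weeks of low fat diet (median 0.42). On chow 0 were called (median -0.11).

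For fatty acid oxidation the counts on the diets stood apart. On control diet 5 of the 23 genes were called higher in 129 and 4 lower (median 0.13), beside the 17 higher and 0 lower on rosiglitazone. None of the 23 was called in the strain by drug test in limma, although 18 had an unadjusted p under 0.05 and were more positive on rosiglitazone, against 2268 of all genes in either direction (9.92%). The median change was 0.54. The respiratory chain had 29 of 40 genes higher and 1 lower on control diet, and the median change with the drug was 0.07, with 3 genes at an unadjusted p under 0.05. The citrate cycle list had 14 higher and 1 lower on control diet. Branched-chain breakdown had 7 of 20 genes higher and 0 lower there (median 0.34). Lipid droplet coats had 6 of 13 higher and 0 lower (median 0.35), and collagen and matrix 6 of 25 higher and 1 lower (median 0.20). The respiratory chain count did not recur in the other undrugged mice. On chow it was 2 higher and 1 lower (median 0.12), and the citrate cycle and fatty acid oxidation lists had 0 called. The part of the epididymis transcripts of the chow libraries, given above, in these chow counts was not tested. After 12 weeks of low fat diet the respiratory chain had 3 higher and 3 lower (median -0.02). The citrate cycle then had 6 higher and 3 lower, and fatty acid oxidation 7 higher and 1 lower.

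In the strain by drug test, sterol and fatty acid synthesis genes leaned the other way, to more negative differences on the drug. Of 23 sterol genes 12 were called higher in 129 on control diet and 0 lower (median 0.66). On rosiglitazone 1 was called higher and 3 lower (median -0.17), where the lower share is near the 8.87% of expressed genes. 4 sterol genes were called in the strain by drug test, all more negative on the drug, with a list median of -0.76. The control diet direction did not recur in the other undrugged mice. After 12 weeks of low fat diet 1 sterol gene was called higher in 129 and 9 lower (median -0.58). On chow 1 was called higher and 0 lower (median 0.14).

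Nsdhl, a dehydrogenase of cholesterol synthesis, had levels of 200, 199, 148 and 227 in 129 and 171, 180, 266 and 262 in C57 rosiglitazone libraries, which overlap. On control diet it stood at 258, 226, 402 and 205 in 129 and at 96, 70, 113 and 96 in C57 libraries, with no overlap, and the change was -1.67 ± 0.29 (adjusted p = 0.0157, lost without C57 rosiglitazone replicate 3). Lss and Sc5d, other enzymes of the same route, changed by -1.13 ± 0.24 (adjusted p = 0.0494) and -0.99 ± 0.20 (adjusted p = 0.0404), and each lost its call in 15 of 25 alternative fits. Mid1ip1, which activates acetyl-CoA carboxylase at the start of fatty acid synthesis, changed by -1.67 ± 0.26 (adjusted p = 0.00558), with 24.1% of its windows in another gene. Of 20 fatty acid synthesis genes 9 were higher on control diet and 0 lower (median 0.58). On rosiglitazone 1 was called higher and 2 lower (median -0.39), the lower share again near the 8.87% of expressed genes. The list median in the strain by drug test was -0.82, with 0 called more positive and 1 more negative. After 12 weeks of low fat diet 0 were called higher and 13 lower (median -1.26), and on chow 0 higher and 1 lower (median -0.23). Me1, the malic enzyme that makes NADPH, was among those lower on rosiglitazone. Its levels were 834, 1092, 1093 and 1216 in 129 against 1943, 1852, 2302 and 2448 in C57 rosiglitazone libraries (-1.02 ± 0.26, adjusted p = 0.0189, lost without C57 replicate 4 or 129 replicate 1).

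**Figure D4:**
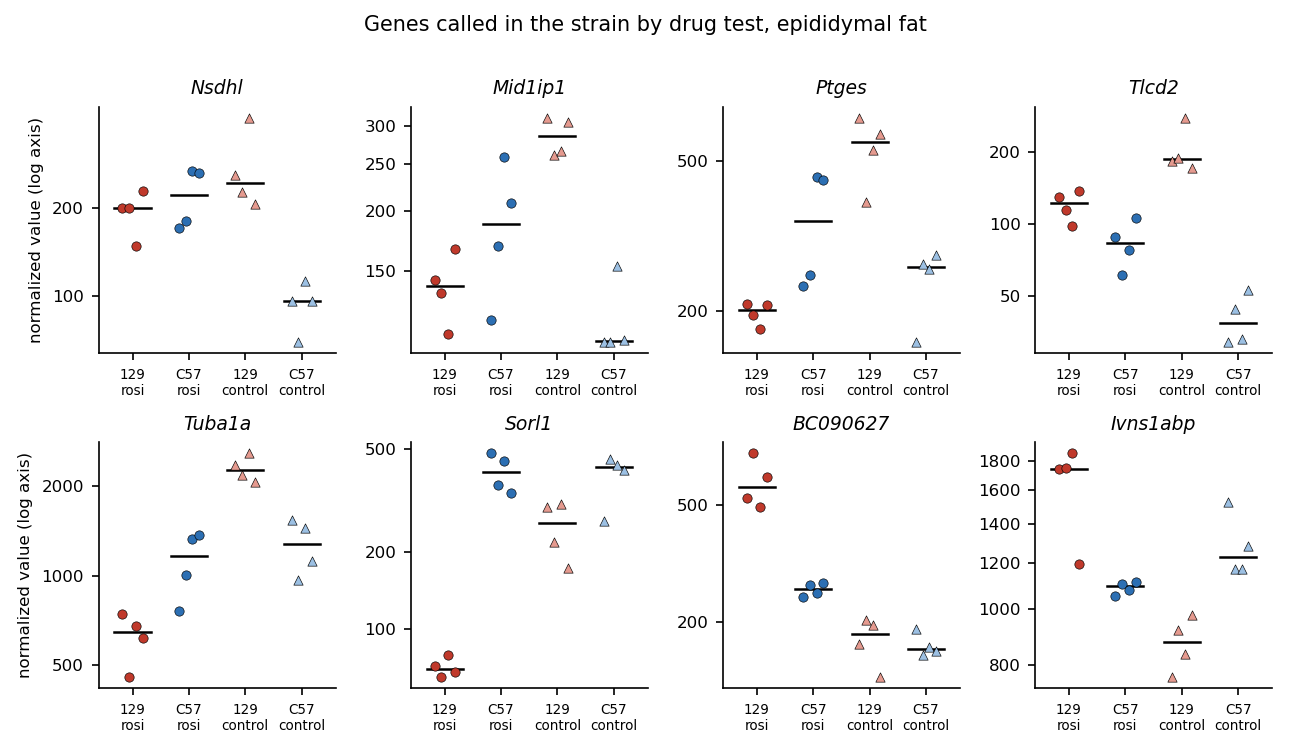
Levels of 8 genes called in the strain by drug test in each library of the drug experiment, on a log axis of normalized value. Points are libraries (circles with rosiglitazone, triangles on control diet), bars are group medians. Ptges and Tuba1a are on average lower in 129 with the drug and higher in 129 without it, and Sorl1 falls to 65 to 79 in 129 rosiglitazone libraries. The Ptges call with the drug was lost in 8 of 18 alternative fits.

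Sorl1, a sorting receptor of the secretory pathway, was also called in this test. Its levels were 72, 65, 79 and 68 in 129 and 481, 364, 451 and 337 in C57 rosiglitazone libraries, and 299, 217, 306 and 172 in 129 and 262, 458, 435 and 414 in C57 control diet libraries. The strains were far apart on the drug and overlapped without it. The difference was -2.50 ± 0.18 on rosiglitazone (adjusted p = 1.4e-08) and -0.66 ± 0.18 on control diet (adjusted p = 0.0145), a change of -1.83 ± 0.26 (adjusted p = 0.00543). Cmklr1, the chemerin receptor, had levels of 310, 258, 319 and 254 in 129 and 904, 554, 845 and 634 in C57 rosiglitazone libraries (-1.34 ± 0.14, adjusted p = 2.01e-06). Its change was -1.03 ± 0.20 (adjusted p = 0.0384), a call that was lost in 15 of 25 alternative fits.

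Of the 31 genes with a negative change 26 were called higher in 129 on control diet, 13 were called lower on rosiglitazone, and 8 were both. Tlcd2, a membrane protein gene, was higher in 129 on control diet by 2.32 ± 0.19 (adjusted p = 3.84e-08) and by 0.54 ± 0.19 on rosiglitazone (adjusted p = 0.0761). Tuba1a, an alpha tubulin with 77.7% of its windows in other genes, had levels of 743, 455, 676 and 618 in 129 and 761, 1004, 1329 and 1367 in C57 rosiglitazone libraries. Its order was reversed on control diet, and the change was -1.70 ± 0.26 (adjusted p = 0.0102). Ptges, which makes prostaglandin E2, and Orm3, an acute phase protein, changed by -1.88 ± 0.31 (adjusted p = 0.0166, lost without 129 rosiglitazone replicate 2) and -2.03 ± 0.39 (adjusted p = 0.0384, lost in 12 of 25 alternative fits). On rosiglitazone itself Ptges was called lower in 129 by a narrow margin (-0.73, adjusted p = 0.0422 in limma), and that call was lost in 8 of 18 alternative fits.

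On the positive side, Ivns1abp, a kelch repeat protein, had levels of 1741, 1746, 1852 and 1192 in 129 and 1050, 1105, 1079 and 1111 in C57 rosiglitazone libraries. Without the drug 129 was the lower strain, at 762, 917, 835 and 974 against 1528, 1170, 1172 and 1280 in C57 libraries, and the change was 1.13 ± 0.17 (adjusted p = 0.00558). BC090627, the Cpt1b readthrough, changed by 1.14 ± 0.19 (adjusted p = 0.0115). Niacr1, the niacin receptor that restrains lipolysis, Lcorl, the creatine transporter Slc6a8, the epoxide hydrolase Ephx2 and the glutathione transferase Gsto1 changed by 1.14 to 1.77, with adjusted p of 0.0243 to 0.048 in limma, and lost their calls in 9 to 18 of 25 alternative fits. The count over all genes ran from 16 (without C57 rosiglitazone replicate 3) to 113 (without C57 rosiglitazone replicate 1), and was 7 in limma without trend and robust settings.

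Some differences were nearly all-or-none and recurred without the drug. Over rosiglitazone, control diet, chow and the 12-week low fat diet, 105 genes were called higher in 129 all 4 times and 141 lower all 4 times. On chow 1141 genes were called in all (4.99%), 2.38% higher and 2.61% lower in 129, and after 12 weeks 4972 (21.7%), 11.6% higher and 10.2% lower. Hal, which breaks down histidine, stood at 333, 295, 262 and 277 in 129 and 12, 12, 9 and 9 in C57 libraries (4.68 ± 0.34, adjusted p = 9.03e-08), and Gbp1, an interferon-induced GTPase, at 257, 169, 163 and 267 in 129 and 6, 10, 4 and 4 in C57 libraries. All 4 129 libraries were high and all 4 C57 libraries near the floor for each. The RNA gene Rprl3 had the largest fold difference of the genes named, 6.58 ± 0.32 (adjusted p = 5.29e-10).

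In the other direction, Unc5a, a netrin receptor, had levels of 11, 7, 10 and 14 in 129 and 170, 153, 204 and 177 in C57 rosiglitazone libraries (-3.97 ± 0.22, adjusted p = 1.13e-10). Trim12a, of a family of antiviral ubiquitin ligases, was at 3, 1, 1 and 1 in 129 and 67, 57, 65 and 45 in C57 libraries, and its relative Trim30d at 5, 3, 5 and 3 in 129 and 52, 49, 47 and 44 in C57 libraries. Pttg1, the separase inhibitor securin, was at 8, 10, 3 and 5 in 129 and 123, 99, 104 and 130 in C57 libraries. The C57 values were steady and the 129 values near the floor. Gene copies limit several such cases: the windows of Rps3a are 75.6% shared with other genes, those of Rpl29 48.8%, those of Gm5506, higher in 129, 87.2%, and those of Cd1d2, also higher in 129, 38.6%. The assembly mm9, named in the submitters' processing notes, is of the C57BL/6J background. How sequence differences of 129 reads bear on these levels was not tested.

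**Figure D5:**
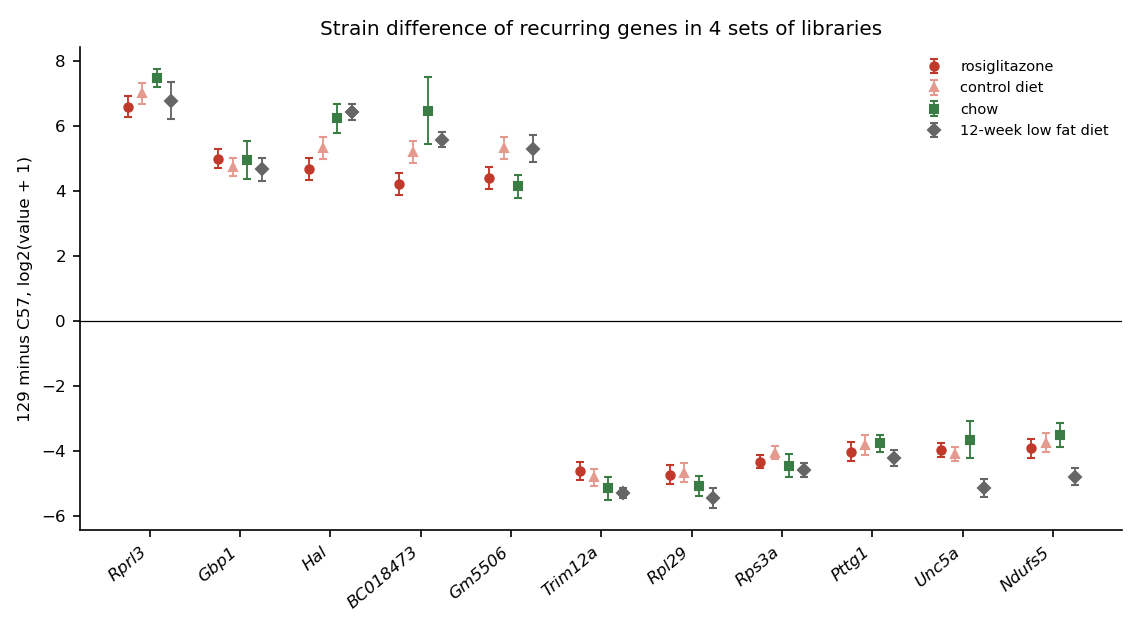
Strain difference of 11 genes called the same way in 4 sets of libraries, 129 minus C57 on the log2(value + 1) scale with standard errors, for rosiglitazone, control diet, chow and 12 weeks of low fat diet. Rprl3, Gbp1, Hal, BC018473 and Gm5506 lie above 4 and Trim12a to Ndufs5 below -3 in every set. The genes were chosen for this recurrence.

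Other named genes were measured well above the floor in both strains. Trf, the iron carrier transferrin, had levels of 2552, 3047, 3601 and 3448 in 129 and 16066, 7426, 11674 and 10750 in C57 rosiglitazone libraries (-1.82 ± 0.19, adjusted p = 5.87e-06), with 80.4% of its windows in an overlapping readthrough gene. Slpi, a secreted protease inhibitor, had 51, 27, 51 and 29 in 129 and 404, 566, 244 and 246 in C57 libraries (-3.14 ± 0.63, adjusted p = 0.00581). The strains did not overlap for either. Per2, a clock repressor whose level swings over the day, had 188, 230, 312 and 278 in 129 and 510, 410, 468 and 342 in C57 libraries (-0.79 ± 0.19, adjusted p = 0.0105, 0.0683 with the 8 libraries alone), and it was the 1 clock gene of 18 called. Nnt, the mitochondrial transhydrogenase, had 113, 105, 102 and 105 in 129 and 82, 84, 92 and 85 in C57 rosiglitazone libraries. These groups did not overlap, yet the difference of 0.31 ± 0.11 missed the threshold (adjusted p = 0.0818), while on control diet it was 1.02 ± 0.11 (adjusted p = 2.13e-06) and the test of the change gave -0.71 ± 0.16 (adjusted p = 0.0633). Slpi, Per2, Trem2, Sorl1 and Cmklr1 were singled out after their values were seen.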

How the data were processed

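RNA of mouse epididymal fat was prepared with a TruSeq kit and sequenced on the Illumina Genome Analyzer, per the labels' protocols. HOMER and the mm9 assembly are named in the submitters' processing notes. The values the authors deposited are a normalized score per transcript, whole numbers with a floor of 1, whose highest value is 231290 in every library of the drug experiment. Raw counts were not used here, so no interval for depth could be given. How the values were normalized is not stated in the labels or headers.

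For each of 22869 genes the transcript row with the highest total was kept. Log2(value + 1) was fitted with limma 3.58.1 in R 4.3.3 (trend and robust settings, two-sided, Benjamini-Hochberg adjustment over all genes), 1 fit for the 16 libraries of the drug experiment and 1 each for chow and 12 weeks, and was tested on simulated data. Members and lists were chosen with earlier results of these data known. Named were the largest called differences, up to 5 called members per list with the smallest p, 15 set genes, the largest strain by drug changes and the most recurrent genes, besides 5 genes chosen after seeing values. Not all of these genes are printed, and a few items are not reported here. Shared sequence is the share of 36-base windows of the longest GENCODE M21 transcript found in other genes. Alternatives were other pseudocounts, filters, scalings, model settings and leaving out each library. Replicate numbers were not used to pair libraries in the main fits.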

Additional observations from a re-analysis of the deposited data

Results flagged for a closer look

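In 12 of 190 groups of 4 rosiglitazone libraries (6.32%), 1 library stood apart by Dixon's criterion, where chance flags about 1 in 20 groups. In 129 these were Ppara in replicate 2 (416), Fabp4 in replicate 4 (58431), Cd36 in replicate 3 (22943), Pck1 in replicate 3 (15186), Sc5d in replicate 3 (368), Trim12a in replicate 1 (3) and Ivns1abp in replicate 4 (1192). In C57 they were Fabp4 in replicate 2 (47712), Gpd1 in replicate 1 (9191), Slc2a4 in replicate 2 (858), Lep in replicate 1 (4854) and Acadm in replicate 2 (1702). Replicate 3 gave 3 of the 7 in 129, and replicate 2 gave 3 of the 5 in C57.

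The strain difference itself differed between rosiglitazone and control diet for 20 named genes, by the strain by drug test in limma. It was more positive on rosiglitazone for Ucp1 (4.62), Niacr1 (1.77), Lcorl (1.42), Slc6a8 (1.27), Ephx2 (1.17), BC090627 (1.14), Gsto1 (1.14), Ivns1abp (1.13) and Mgll (0.515), on the log2 scale. The call of Mgll (adjusted p = 0.0495) was lost in 20 of 25 alternative fits. It was more negative for Orm3 (-2.03), Ptges (-1.88), Sorl1 (-1.83), Tlcd2 (-1.78), Tuba1a (-1.7), Nsdhl (-1.67), Mid1ip1 (-1.67), Lss (-1.13), Cmklr1 (-1.03), Sc5d (-0.989) and Gpd1 (-0.962).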

How the results depend on the processing

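No named result reversed. Of 74 named genes called on rosiglitazone 58 were called under all 18 alternatives, and of 20 called in the strain by drug test 0 under all 25. The rosiglitazone count of 2444 became 1407 from its 8 libraries alone, and 1619 to 2661 when single libraries were left out. The control diet count of 4004 ran from 3130 to 4070 without single libraries. The strain by drug count of 48 was 29 after a further quantile normalization, 7 with neither trend nor robust settings, 84 with array weights and 31 with summed transcript rows, and 16 to 113 without single libraries. The chow count of 1141 was 3687 with array weights and 655 to 2557 without single libraries, and the 12-week count of 4972 ran from 3849 to 5119. Depth is unknown, so genes near the floor of 1 are limited by counting error of unknown size. The cause of these shifts was not tested beyond fewer libraries.

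With the replicate number as a block the counts were 2424 on rosiglitazone, 3965 on control diet, 47 in the strain by drug test, 252 on chow and 1275 after 12 weeks. Correlations of the deviations of same-numbered libraries ran from -0.248 to 0.103 on rosiglitazone, from -0.487 to 0.479 on chow and from -0.0751 to 0.106 after 12 weeks. No library of these groups correlated best with its own number. So few pairs cannot show whether same-numbered libraries shared more than a number.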

Other observations

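Groups of genes described here were put together after their values were seen, so their counts are descriptions. All 8 measured genes of the UDP-glucuronosyltransferase 1 family, enzymes that conjugate bilirubin and drugs and whose transcripts share exons, were called higher in 129 on rosiglitazone (median 1.30) and on control diet (median 1.04). Of 75 mitochondrial ribosomal proteins 17 were called higher in 129 on rosiglitazone (22.7%) and 1 lower, and on control diet 39 were higher. Of 20 genes of mitochondrial protein import 8 were higher on rosiglitazone and 0 lower, and of 46 proteasome subunits 11 were higher and 1 lower, against 31 higher and 0 lower on control diet. The background was 9.14% higher and 8.87% lower among expressed genes on rosiglitazone. Over all genes it was 5.45% higher and 5.24% lower on rosiglitazone, against 10.0% and 7.51% on control diet. Counts on control diet therefore stand against a higher share of calls.

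Of 27 histone genes 9 were higher on each diet and 0 lower. Of 12 mesothelial markers, genes of the lining of the fat pad, none was called in limma on either diet or in the strain by drug test, although 6 had an unadjusted p under 0.05 for a more negative difference on the drug. Their summed levels were 895 to 2172 in 129 and 1633 to 2929 in C57 rosiglitazone libraries.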
